A study of Mus musculus with 6 samples.

Results

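The Ikaros zinc finger family was followed across 3 Ikzf3 genotypes in splenic naive CD4 T cells. Its members are the 5 genes Ikzf1, Ikzf2, Ikzf3, Ikzf4 and Ikzf5, which encode Ikaros, Helios, Aiolos, Eos and Pegasus. They were chosen by symbol alone from the 25239 genes that each count file lists, and all 5 passed the filter on low counts that left 12117 genes for testing. RNA-seq libraries came from Ikzf3+/+, Ikzf3+/N159S and Ikzf3N159S/N159S mice on a C57BL/6 background, with 2 libraries per genotype. The N159S allele, in which an asparagine of Aiolos is replaced by serine, was introduced by CRISPR-Cas9 editing of the mouse germline, so all cells of these animals carry it. T cells were sorted from spleen as TCRb+CD4+CD44-CD127+ cells without further treatment, and CD127 served as the naive marker in the study. Ages and pooling of animals are not given for these libraries in the sources used here. The study asked how the Aiolos variant changes gene expression and whether it interferes with Ikaros. The comparisons below address which transcripts of the family itself differed between the genotypes.

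Ikaros family proteins bind DNA through a cluster of zinc fingers near the N terminus and pair with each other through a further set of fingers at the C terminus, so that members form mixed complexes. They recruit chromatin remodelling and histone deacetylase complexes and can both repress and activate genes. In T cells, Ikaros restrains proliferation and cytokine genes, Aiolos accompanies lymphocyte maturation, and Helios and Eos are best known from regulatory T cells.

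The asparagine altered by N159S lies in a DNA-binding zinc finger that 4 of the 5 members share, and the reference coding sequence of that finger is shown to place the variant in each member. The codon aligned with the altered codon of Ikzf3 is in capitals and the rest of the 63-base finger is in lower case, written 5′ to 3′ on the coding strand from GENCODE M21 on GRCm38 (mm10).
Ikzf3: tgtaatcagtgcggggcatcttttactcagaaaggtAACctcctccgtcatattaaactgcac
Ikzf1: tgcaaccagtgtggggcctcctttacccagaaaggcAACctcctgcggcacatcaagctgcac
Ikzf2: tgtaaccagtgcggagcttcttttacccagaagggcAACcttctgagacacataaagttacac
Ikzf4: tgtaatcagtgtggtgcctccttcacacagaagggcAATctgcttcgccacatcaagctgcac
Ikzf5: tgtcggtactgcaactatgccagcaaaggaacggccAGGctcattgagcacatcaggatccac
The Ikzf3 finger lies in exon 5 at chr11:98488940-98489002 on the minus strand, with the altered codon at chr11:98488964-98488966. The matching fingers lie in exon 6 of Ikzf1 at chr11:11754024-11754086 (plus strand), in exon 5 of Ikzf2 at chr1:69570581-69570643 (minus strand), in exon 5 of Ikzf4 at chr10:128640229-128640291 (minus strand) and in exon 3 of Ikzf5 at chr7:131393759-131393821 (minus strand). Against the Ikzf3 finger, 12 bases differed in Ikzf1, 15 in Ikzf2 and 15 in Ikzf4, yet none of these differences altered an encoded residue. The Ikzf5 finger differed from that of Ikzf3 at 38 bases and 15 encoded residues, and its aligned codon does not encode asparagine. Over the whole aligned proteins, identity with Aiolos was 55.8% for Ikaros, 51.7% for Helios, 48.3% for Eos and 28.9% for Pegasus.

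The depth was 11696461 to 17317260 reads counted on genes per library, and the replicates of each genotype differed by more than sampling noise. T cell identity genes were abundant in all libraries, with a summed level of the 9 naive T cell markers between 6115 and 7313 CPM, the read count of a gene scaled to a common library size by edgeR's TMM method. The Ikzf3+/N159S libraries stood apart from the other 4 in several ways that accompany any comparison with them. Xist, the RNA that coats the silenced X chromosome, had 731 and 824 CPM in them and 0.773 to 1.98 CPM elsewhere. The 10 B cell markers summed to 391 and 642 CPM in Ikzf3+/N159S, 158 and 233 in Ikzf3+/+, and 158.5 and 106.6 in Ikzf3N159S/N159S libraries. Each of the 10 had reads in all 6 libraries.

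Per kilobase of exon, Ikzf1 was the most abundant member in Ikzf3+/+ T cells, with a level of 191 and 177 CPM per kilobase in the 2 libraries. Ikzf3 followed at 43.0 and 42.2, and Ikzf5 at 13.1 and 12.4 CPM per kilobase. Ikzf4 stood at 2.42 and 1.72 and Ikzf2 at 1.56 and 1.36 CPM per kilobase. The levels of these last members were close to each other, whereas the steps between Ikzf1, Ikzf3, Ikzf5 and Ikzf4 were larger than the spread between replicates. The order was the same in all 3 genotypes and when the longest transcript replaced all exons as the length. Ikaros transcripts made up 75.7% ± 0.504 (SD, n = 2) of family reads per kilobase in Ikzf3+/+, 70.4% ± 0.679 in Ikzf3+/N159S and 67.5% ± 0.187 in Ikzf3N159S/N159S T cells. Aiolos transcripts made up 17.6% ± 0.650 (SD, n = 2), 21.2% ± 0.874 and 25.2% ± 0.580 in the same order. The libraries of the 3 genotypes did not overlap in either share. The 2 shares are not separate results, because these 2 members make up most of the family. A stepwise, non-overlapping rise of reads relative to Ikzf1 was also seen in 10.7% of the other tested genes.

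**Figure D1:**
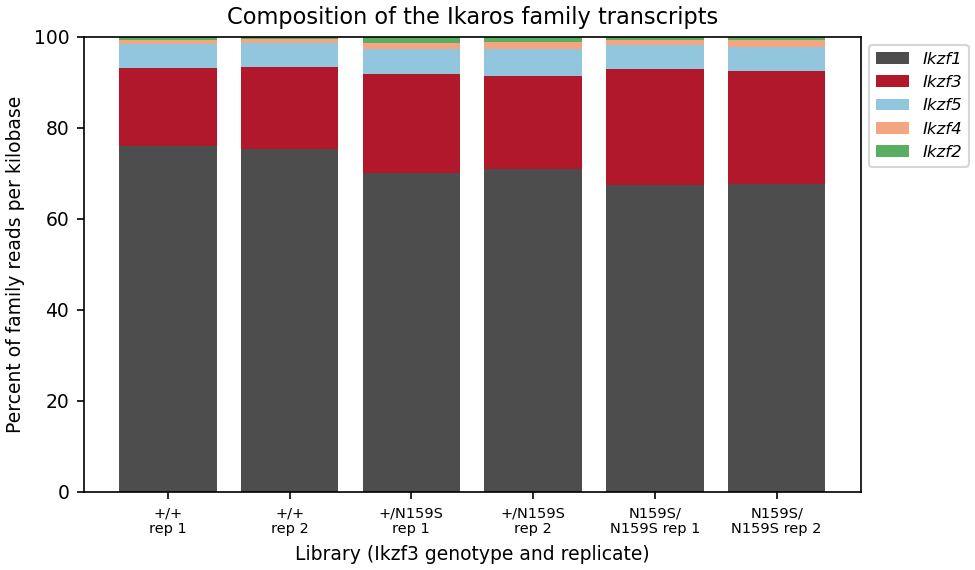
Stacked bars show, for each of the 6 libraries, the percent of Ikaros family reads per kilobase of exon that each member took. The Ikzf1 share is 75.4 to 76.1% in Ikzf3+/+ and 67.4 to 67.7% in Ikzf3N159S/N159S libraries, and the Ikzf3 share is 17.1 to 18.0% and 24.7 to 25.6%.

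Ikaros transcripts were lower in all 4 libraries that carried the variant than in both Ikzf3+/+ libraries, but the difference did not pass the threshold. Ikzf1, which encodes the founding member of the family and spans chr11:11685003-11772926, had levels of 1066 and 985 CPM in the Ikzf3+/+ libraries, 822 and 801 in the Ikzf3+/N159S libraries and 793 and 845 in the Ikzf3N159S/N159S libraries. Both mutant genotypes lay below Ikzf3+/+ without overlap and overlapped each other. The means were 1025 ± 56.9, 812 ± 14.5 and 819 ± 37.0 CPM (SD, n = 2 each), and the reads behind them numbered 11534 to 14644 per library. Against Ikzf3+/+, the log2 fold change was −0.34 in Ikzf3+/N159S (standard error 0.0997, 95% interval −0.56 to −0.12, FDR = 0.123) and −0.32 in Ikzf3N159S/N159S T cells (standard error 0.0997, 95% interval −0.54 to −0.11, FDR = 0.0957). Each FDR here and below comes from the quasi-likelihood test of edgeR, with the Benjamini-Hochberg adjustment made across all tested genes. DESeq2 gave FDR values of 0.0240 and 0.0266 for these differences, and edgeR's likelihood ratio test 0.0488 and 0.0446, so the side of the threshold depended on the test. The mutant genotypes differed from each other by 0.013 on the log2 scale (95% interval −0.21 to 0.23, FDR = 0.974), and the sign of this difference turned under upper quartile scaling (−0.0089). Of all tested genes, 12.9% likewise had all 4 mutant libraries below both Ikzf3+/+ libraries, so the position of Ikzf1 alone is not particular to it. In bulk RNA, fewer cells of a type and less RNA per cell cannot be told apart.

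Aiolos transcripts were higher in Ikzf3N159S/N159S T cells. The reads of Ikzf3 do not check the genotype labels, because a count per gene holds both alleles. Ikzf3 levels were 157 and 155 CPM in the Ikzf3+/+ libraries, 168 and 152 in the Ikzf3+/N159S libraries and 197 and 203 in the Ikzf3N159S/N159S libraries. Both Ikzf3N159S/N159S libraries were above the other 4, and the Ikzf3+/N159S libraries lay on either side of Ikzf3+/+. Ikzf3, at chr11:98464902-98546031, was the only member called in Ikzf3N159S/N159S T cells, where its log2 fold change reached 0.36 (standard error 0.0934, 95% interval 0.15 to 0.56, FDR = 0.0490). That is 1 of 5 members, where 5.26% of all tested genes were called in this comparison. The call was marginal. It was kept under 8 of 11 other settings, with FDR values between 0.00156 and 0.0878, and was lost without Ikzf3+/+ replicate 1 (FDR = 0.204) or 2 (FDR = 0.260) and without Ikzf3N159S/N159S replicate 1 (FDR = 0.177) or 2 (FDR = 0.214), while the fold change stayed between 0.35 and 0.38. In Ikzf3+/N159S T cells the difference was 0.039 on the log2 scale (95% interval −0.17 to 0.24, FDR = 0.877). Between Ikzf3N159S/N159S and Ikzf3+/N159S it was 0.32 (95% interval 0.12 to 0.52, FDR = 0.134), and the libraries did not overlap.

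**Figure D2:**
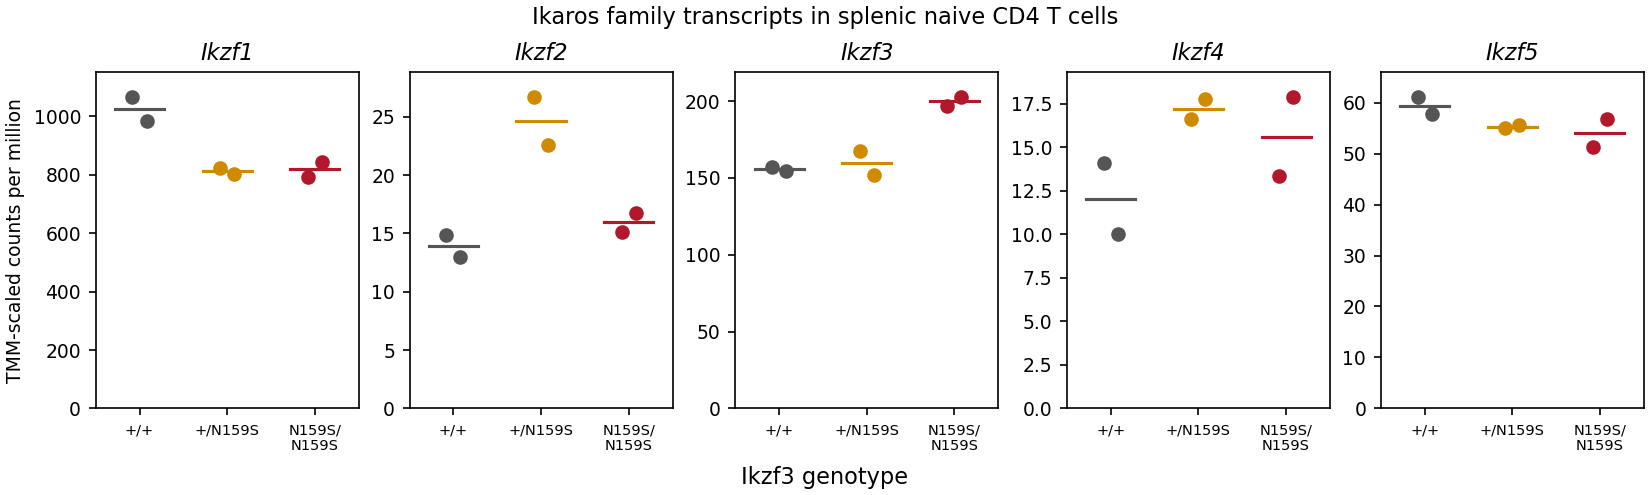
Points give the TMM-scaled CPM of each member in each library, by Ikzf3 genotype, and lines give the mean of the 2 libraries. Each panel has its own axis from 0. Ikzf1 is below the Ikzf3+/+ libraries in all 4 mutant libraries, Ikzf2 is highest in Ikzf3+/N159S (22.5 and 26.7 CPM) and Ikzf3 in Ikzf3N159S/N159S (197 and 203 CPM).

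Within a library, the ratio of Aiolos to Ikaros transcripts does not depend on how libraries are scaled. There were 14.7 and 15.7 Ikzf3 reads per 100 Ikzf1 reads in the Ikzf3+/+ libraries, 20.4 and 19.0 in the Ikzf3+/N159S libraries and 24.9 and 24.0 in the Ikzf3N159S/N159S libraries. The genotypes did not overlap, and the ratio was higher with each N159S allele. It was 1.295 times the Ikzf3+/+ value in Ikzf3+/N159S and 1.61 times in Ikzf3N159S/N159S T cells. The slope was 0.34 log2 units per allele, a factor of 1.27 (two-sided exact permutation test, p = 0.0222, the smallest p that the 90 assignments of 6 libraries to 3 genotypes can give). The ratio was chosen with earlier results of these data known, and any gene with the same order of genotypes without overlap would give this p. The standard deviation between replicates was 0.0599 log2 units. With the reads of all other members as the denominator the slope was 0.33 (two-sided exact permutation test, p = 0.0222), and leaving out single libraries gave slopes of 0.32 to 0.36. The Ikzf3+/N159S libraries lie at the mean allele number and carry no weight in the slope of all 6 libraries. That slope therefore rests on Ikzf3N159S/N159S against Ikzf3+/+, and was bound to stay at 0.34 without either Ikzf3+/N159S library. The 2 steps had unequal makeup. From Ikzf3+/+ to Ikzf3+/N159S the ratio moved by 0.37 log2 units, with differences of −0.34 in Ikzf1 and 0.039 in Ikzf3. From Ikzf3+/N159S to Ikzf3N159S/N159S it moved by 0.31, with differences of 0.013 in Ikzf1 and 0.32 in Ikzf3. A stepwise, non-overlapping rise relative to Ikzf1 was seen in 10.7% of the other tested genes, so this order by itself does not set Ikzf3 apart from them. Summed B cell markers stood at 2.64 times the Ikzf3+/+ level in Ikzf3+/N159S and at 0.677 times in Ikzf3N159S/N159S libraries. Xist was high in Ikzf3+/N159S libraries only, so the sex-linked difference cannot be told apart from that genotype. The part of these differences in the ratio was not tested.

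**Figure D3:**
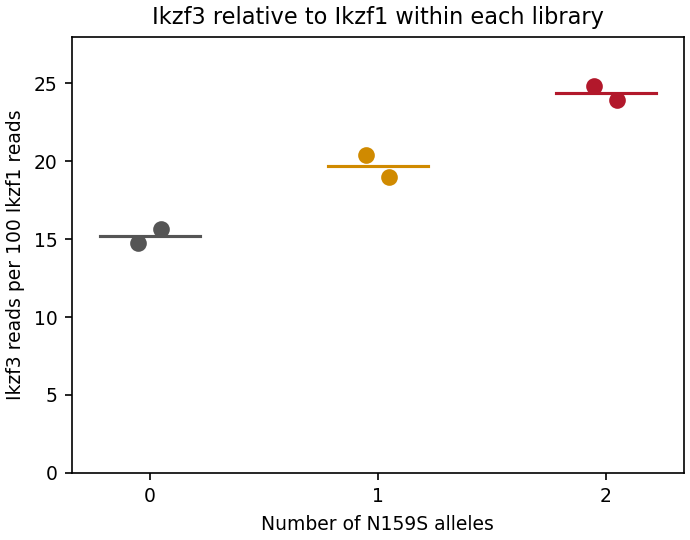
Points give the number of Ikzf3 reads per 100 Ikzf1 reads in each library against the number of N159S alleles, and lines give the mean of 2 libraries. The means are 15.2, 19.7 and 24.4 for 0, 1 and 2 alleles, and no libraries of different genotypes overlap.

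Helios transcripts were higher in Ikzf3+/N159S T cells than in both other genotypes. Ikzf2, at chr1:69531214-69687245, had levels of 14.9 and 13.0 CPM in the Ikzf3+/+ libraries, 26.7 and 22.5 in the Ikzf3+/N159S libraries and 15.1 and 16.8 in the Ikzf3N159S/N159S libraries. Both Ikzf3+/N159S libraries were above the other 4, and the Ikzf3N159S/N159S libraries were just above the higher Ikzf3+/+ library. The means were 13.9 ± 1.32, 24.6 ± 2.92 and 15.9 ± 1.16 CPM (SD, n = 2 each), resting on 173 to 452 reads per library. Ikzf2 was 1.78-fold higher in Ikzf3+/N159S than in Ikzf3+/+ T cells (log2 fold change 0.83, standard error 0.154, 95% interval 0.49 to 1.17, FDR = 0.0230). It was the only member called in this comparison, 1 of 5, where 1.75% of all tested genes were called. The call held under all 11 other settings of scaling, filter, test, block and samples in the fit (FDR values of 0.000141 to 0.0350). Without Ikzf3+/+ replicate 1 (FDR = 0.0617) or 2 (FDR = 0.213), or Ikzf3+/N159S replicate 1 (FDR = 0.0914), the threshold was missed, with log2 fold changes of 0.92, 0.73 and 0.70.

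The Ikzf2 level in Ikzf3+/N159S T cells was not midway between the other genotypes. Ikzf3+/N159S T cells lay 0.73 log2 units above the midpoint of the other genotypes (standard error 0.128, 95% interval 0.45 to 1.01, FDR = 0.0221), the only member of 5 to pass this test, which 1.03% of tested genes passed. This call was lost without Ikzf3+/+ replicate 2 (FDR = 0.0703) or Ikzf3+/N159S replicate 1 (FDR = 0.151). In Ikzf3N159S/N159S against Ikzf3+/+ T cells the log2 fold change was 0.20 (95% interval −0.16 to 0.55, FDR = 0.582). Ikzf3N159S/N159S T cells differed from Ikzf3+/N159S T cells by −0.63 (standard error 0.149, 95% interval −0.96 to −0.31, FDR = 0.0636), short of the threshold, although the likelihood ratio test gave an FDR of 0.00783. Of the 5 members, 0 were called in this last comparison by edgeR's quasi-likelihood test, against 1.66% of all tested genes. In the same test 2 of the 5 members had an unadjusted p under 0.05 (Ikzf2 and Ikzf3), for which no share over all genes is given here. DESeq2 called 0 of the 5 and the likelihood ratio test 1, where they called 251 and 473 of all tested genes. Departures from the midpoint were −0.17 for Ikzf1 (FDR = 0.469), −0.14 for Ikzf3 (FDR = 0.539), 0.34 for Ikzf4 (FDR = 0.458) and −0.034 for Ikzf5 (FDR = 0.924).

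**Figure D4:**
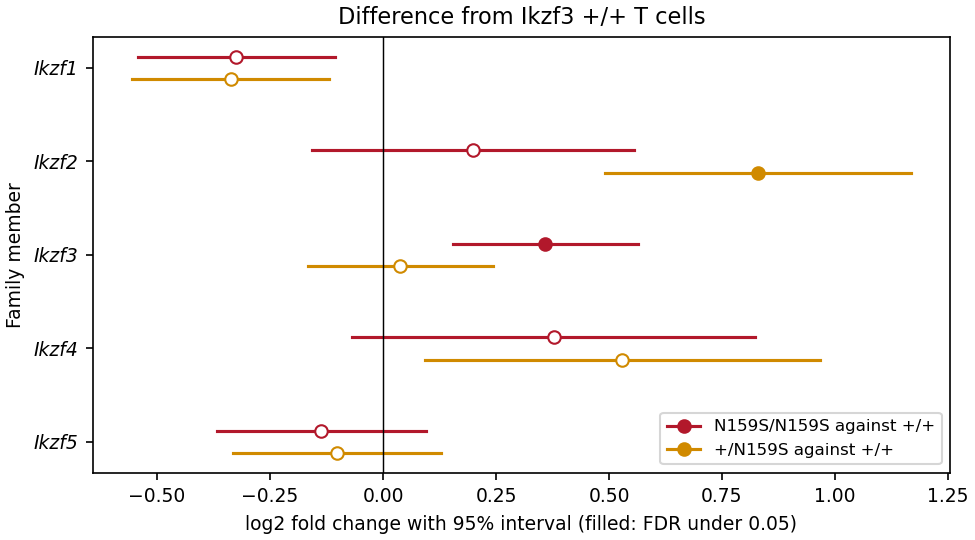
Points give the log2 fold change of each member against Ikzf3+/+ T cells and lines its 95% interval, for Ikzf3N159S/N159S and Ikzf3+/N159S T cells. Filled points have an FDR under 0.05 and are Ikzf3 in Ikzf3N159S/N159S (0.36) and Ikzf2 in Ikzf3+/N159S (0.83).

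The summed levels of regulatory T cell, effector and memory, and B cell markers were highest in the Ikzf3+/N159S libraries, as for Ikzf2. Foxp3, the lineage factor of regulatory T cells, in which Helios is abundant, had levels of 6.87 and 11.2 CPM in the Ikzf3+/+ libraries, 30.2 and 16.7 in the Ikzf3+/N159S libraries and 10.9 and 5.71 in the Ikzf3N159S/N159S libraries. Both Ikzf3+/N159S libraries were above the other 4, as for Ikzf2, and the log2 fold change of Foxp3 against Ikzf3+/+ was 1.35 (standard error 0.326, FDR = 0.0652). The 8 regulatory T cell markers summed to 103 and 109 CPM in the Ikzf3+/+ libraries, 157 and 134 in the Ikzf3+/N159S libraries and 99.2 and 91.9 in the Ikzf3N159S/N159S libraries. Of the 7 markers tested, 5 had higher fitted levels in Ikzf3+/N159S than in Ikzf3+/+, and Lrrc32 (log2 fold change −0.32) and Gpr83 (−0.48) had lower ones. Of the 7, edgeR's quasi-likelihood test called 0, DESeq2 1 and the likelihood ratio test 3. Among all 12117 tested genes these tests called 212, 341 and 640. At an unadjusted p under 0.05 stood 4 of the 7, for which no share over all genes is given here. Among all 8, Il10 alone had 0 reads in a library. The 9 effector and memory markers summed to 195 and 192 CPM in the Ikzf3+/+ libraries, 246 and 253 in the Ikzf3+/N159S libraries and 183 and 207 in the Ikzf3N159S/N159S libraries, with Gzmk at 0 reads in 4 libraries. Of the 8 tested, 2 were called higher in Ikzf3+/N159S, the chemokine receptor Cxcr3 (log2 fold change 2.17, FDR = 0.0169) and the transcription factor Maf (1.37, FDR = 0.00758), where 1.15% of all tested genes were called higher. B cell markers in Ikzf3+/N159S stood at 2.64 times the Ikzf3+/+ level, with 5 of 10 called higher, against the same 1.15%. The sort for TCRb+CD4+CD44-CD127+ cells is meant to leave out B cells and CD44-high effector and memory cells, and most regulatory T cells, which carry little CD127. The part of these cell types in the Ikzf2 level was not tested. Xist was high in both Ikzf3+/N159S libraries and in no others, so the part of the sex-linked difference cannot be told apart from that of the genotype.

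**Figure D5:**
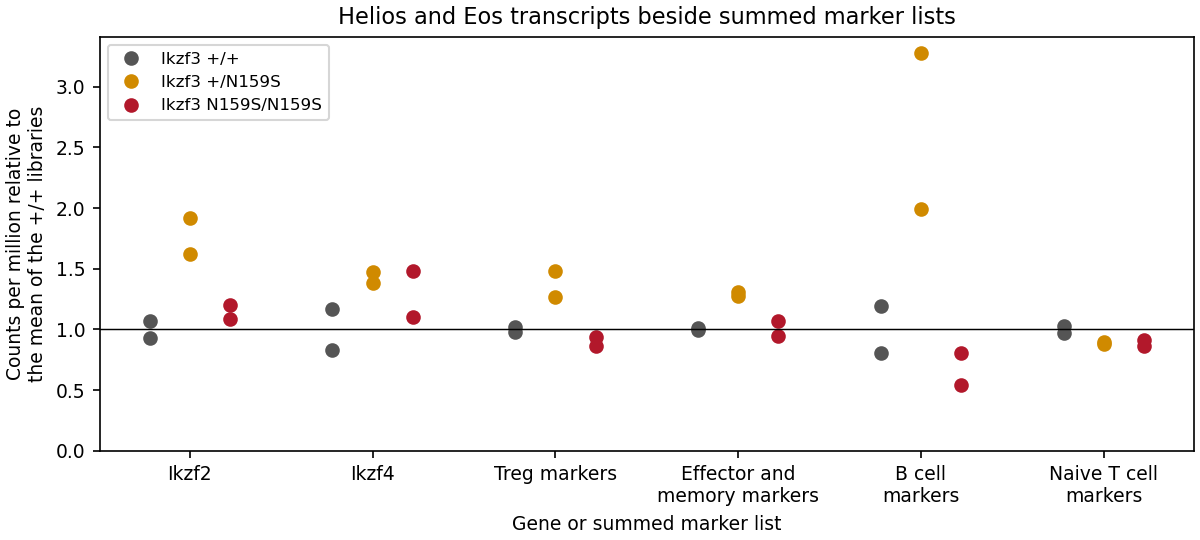
Points give the level of Ikzf2, of Ikzf4 and of 4 summed marker lists in each library, divided by the mean of the Ikzf3+/+ libraries. In Ikzf3+/N159S libraries Ikzf2 stands at 1.62 and 1.92, the regulatory T cell list at 1.27 and 1.48, the effector and memory list at 1.28 and 1.31, the B cell list at 2 and 3.28 and the naive T cell list at 0.880 and 0.899.

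Eos transcripts did not pass the threshold in either mutant genotype. Ikzf4, whose protein partners Foxp3 in regulatory T cells, spans chr10:128630843-128645991 and had levels of 14.08 and 10.02 CPM in the Ikzf3+/+ libraries, 16.6 and 17.8 in the Ikzf3+/N159S libraries and 13.3 and 17.9 in the Ikzf3N159S/N159S libraries. The Ikzf3+/N159S libraries lay above both Ikzf3+/+ libraries, and the Ikzf3N159S/N159S libraries overlapped both other genotypes. With 149 to 282 reads per library, the log2 fold change against Ikzf3+/+ was 0.53 in Ikzf3+/N159S (standard error 0.199, 95% interval 0.09 to 0.97, FDR = 0.219) and 0.38 in Ikzf3N159S/N159S T cells (standard error 0.203, 95% interval −0.07 to 0.82, FDR = 0.366). The intervals are wide beside those of the more abundant members. Leaving out single libraries gave values of 0.29 to 0.78 in Ikzf3+/N159S and 0.14 to 0.63 in Ikzf3N159S/N159S T cells, in each case lowest without Ikzf3+/+ replicate 2 and highest without Ikzf3+/+ replicate 1. In Ikzf3N159S/N159S T cells the value was also 0.58 without Ikzf3N159S/N159S replicate 1 and 0.17 without replicate 2. None of these passed the threshold. The summed regulatory T cell markers given above were also higher in both Ikzf3+/N159S than in both Ikzf3+/+ libraries. Of the 7 tested, 0 were called by edgeR's quasi-likelihood test, against 1.75% of all tested genes. The part of these markers in the Ikzf4 level was not tested.

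Pegasus transcripts differed little by genotype. Ikzf5, the member farthest from Aiolos in sequence, spans chr7:131388652-131410521 and had levels of 61.1 and 57.7 CPM in the Ikzf3+/+ libraries, 54.9 and 55.6 in the Ikzf3+/N159S libraries and 51.2 and 56.8 in the Ikzf3N159S/N159S libraries. Both mutant genotypes were slightly below Ikzf3+/+ and overlapped each other. The log2 fold change was −0.10 in Ikzf3+/N159S (95% interval −0.33 to 0.13, FDR = 0.673) and −0.14 in Ikzf3N159S/N159S T cells (95% interval −0.37 to 0.09, FDR = 0.560). Ikzf5 overlaps Fgfr2 and Pstk in the annotation, and Ikzf4 overlaps Gm26876, so reads in the overlaps are uncertain, since strand use in the counting is not given in the sources used here.

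Libraries that do not overlap were frequent in this design and carry little weight on their own. Ikzf3N159S/N159S and Ikzf3+/+ libraries did not overlap for 4 of 5 members, against 48.3% of all tested genes. Ikzf3+/N159S and Ikzf3+/+ libraries did not overlap for 4 of 5 members, against 47.1%. For Ikzf3N159S/N159S and Ikzf3+/N159S libraries the count was 2 of 5, against 41.1%. For any gene taken alone, the smallest p of an exact permutation test of 2 libraries against 2 is 0.333, and the FDR values draw on the spread of all genes. The summed level of the 5 members was 1313 and 1220 CPM in the Ikzf3+/+ libraries, 1088 and 1049 in the Ikzf3+/N159S libraries and 1069 and 1139 in the Ikzf3N159S/N159S libraries, which follows Ikzf1 as the most abundant member.

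Genes of the complexes that Ikaros family proteins work with had counts of calls near the background. Of 19 corepressor partners, subunits of the NuRD, Sin3, CtBP and SWI/SNF complexes, edgeR's quasi-likelihood test called 0 in Ikzf3N159S/N159S and 0 in Ikzf3+/N159S against Ikzf3+/+. At an unadjusted p under 0.05 in that test stood 1 in each comparison, for which no share over all genes is given here. DESeq2 and the likelihood ratio test also called 0. Over all tested genes 5.26% were called in Ikzf3N159S/N159S and 1.75% in Ikzf3+/N159S, so 0 of 19 is near the background. Their median log2 fold change was −0.024 in Ikzf3N159S/N159S and −0.11 in Ikzf3+/N159S, beside 0.00038 and 0.011 over all tested genes. The smallest p values in Ikzf3N159S/N159S belonged to Sin3a, the scaffold of the Sin3 complex (log2 fold change 0.22, standard error 0.0960, FDR = 0.258), and Hdac1, a histone deacetylase (−0.15, standard error 0.0892, FDR = 0.434). The 5 genes of the cereblon ubiquitin ligase, through which thalidomide analogues degrade Ikaros and Aiolos, likewise had 0 called by any of these tests. For 5 genes this is also near the same background of 5.26% and 1.75%. At an unadjusted p under 0.05 in edgeR's quasi-likelihood test also stood 0 of them. Crbn, the substrate receptor, differed by −0.17 on the log2 scale (standard error 0.131, FDR = 0.556) and Cul4b, a scaffold subunit, by −0.16 (standard error 0.127, FDR = 0.568) in Ikzf3N159S/N159S T cells. The ligase medians were −0.052 in Ikzf3N159S/N159S and −0.051 in Ikzf3+/N159S T cells.

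Textbook targets of the family showed falls of large size in 2 genes. Of 15 targets listed, 11 were tested, and Il2, Ifng, Notch3 and Ptcra were too low. In Ikzf3N159S/N159S T cells 1 rose and 2 fell, where 3.14% of all tested genes were called higher and 2.12% lower. In Ikzf3+/N159S T cells 0 rose and 3 fell, where 0.602% of all tested genes were called lower. The list was chosen with earlier results of these data known, so these counts do not test whether targets changed more often than other genes. Dntt, which encodes terminal deoxynucleotidyl transferase, had levels of 8.76 and 7.94 CPM in the Ikzf3+/+ libraries, 1.298 and 2.769 in the Ikzf3+/N159S libraries and 0.233 and 0.586 in the Ikzf3N159S/N159S libraries, so the genotypes did not overlap and the level was lower with each allele. Its log2 fold change was −2.05 in Ikzf3+/N159S (standard error 0.320, FDR = 0.0117) and −4.39 in Ikzf3N159S/N159S T cells (standard error 0.455, FDR = 0.000241). Fcer2a, which encodes CD23, had log2 fold changes of −2.77 in Ikzf3+/N159S (standard error 0.38, FDR = 0.00594) and −4.59 in Ikzf3N159S/N159S T cells (standard error 0.499, FDR = 0.000335). The Fcer2a value of Ikzf3N159S/N159S T cells rests on 6 and 8 reads. Fcer2a is mainly a B cell gene, and it fell in Ikzf3+/N159S T cells while the B cell markers given above were higher there. Myc, a growth regulator, was 102 and 102 CPM in the Ikzf3+/+ libraries, 110 and 109 in the Ikzf3+/N159S libraries and 133 and 143 in the Ikzf3N159S/N159S libraries, and rose by 0.44 in Ikzf3N159S/N159S (standard error 0.0925, FDR = 0.0182). Il7r, which encodes the CD127 used in the sort, fell by 0.49 in Ikzf3+/N159S (standard error 0.101, FDR = 0.0368). The median over the 11 tested targets was −0.26 in Ikzf3N159S/N159S and −0.035 in Ikzf3+/N159S T cells.

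Likeness to the called members was measured over the 6 libraries as the root mean square difference of centred log2 CPM, among 7509 genes whose mean log2 CPM reached 4 or more. Among the nearest to Ikzf3 were Chst12, a sulfotransferase gene (0.0168), Atp8b4, a flippase gene (0.0385), and Map2k3, a kinase gene (0.0415). These had log2 fold changes of 0.29 to 0.34 in Ikzf3N159S/N159S T cells, and none of the 3 was called there by edgeR's quasi-likelihood test. Nearest to Ikzf2 were Tnfrsf13b, which encodes the receptor TACI of B cells (0.128), Ctso, a cathepsin gene (0.146), B3gnt5, a glycosyltransferase gene (0.160), and Pigp, a gene of GPI anchor synthesis (0.166). Of these, B3gnt5 was called in Ikzf3+/N159S T cells, where it differed by 0.77 on the log2 scale (FDR = 0.0218). In raw distance the profile of Ikzf2, high in both Ikzf3+/N159S libraries, was matched less closely than that of Ikzf3. The 2 profiles also differ in size, with a root mean square distance from their own mean of 0.361 for Ikzf2 and 0.167 for Ikzf3. Of the 7509 genes, 2551 and 1940 lay closer to them than that. The distances are therefore not directly comparable. With 6 libraries that share their genotypes, such likeness is a description.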

How the data were processed

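Read counts of 6 splenic T cell libraries were used. B cell libraries of the study were not used here. RNA was poly(A)-selected. The authors trimmed reads with Trimmomatic 0.38.1, mapped them to mm10 with HISAT2 2.2.1, counted them on refGene genes with HTSeq 2.0.2 and deposited counts per gene without normalization (versions per the submitters' processing notes). The 5 rows per file that name no gene were left out, and 50.7 to 57.7% of entries were on genes. Testing used edgeR 4.0.16 under R 4.3.3: filterByExpr by genotype with a minimum count of 10 and a minimum total of 15, TMM scaling, 1 quasi-likelihood fit of the 6 libraries with a coefficient per genotype, and Benjamini-Hochberg adjustment over 12117 genes at 0.05. DESeq2 1.42.0 was an alternative. CPM are TMM-scaled, and log2 CPM used a prior count of 2. Lengths, exons and sequences are from GENCODE M21 (GRCm38), codons being numbered in the transcript with the longest coding sequence and the finger found by its cysteine and histidine spacing. The scripts were tested on simulated data.

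Replicates are separate libraries. The study's methods speak of 2 mice for each mutant genotype, and for Ikzf3+/+ do not say which of their numbers applies to T cells. The p-values of edgeR set a difference against the spread between these libraries, estimated with the help of all tested genes. The p of the ratio ranks its slope among the 90 assignments of libraries to genotypes. Deviations of libraries with the same replicate number correlated at −0.167, −0.216 and 0.238, so the numbers were not taken to pair them.

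The members, the lists and the ratio were chosen with earlier results of these data known. Named were the 5 members, from each of the corepressor, cereblon ligase, target and transcription factor lists the genes past the threshold in a mutant genotype (at most 6, largest change first) or else the 2 with the smallest p in Ikzf3N159S/N159S, and the 4 genes nearest in profile to each called member. Of these, 1 gene is not reported here. From the marker lists only some genes were named, beside the results they accompany, and this choice was made after their values were seen. Lists covered naive, regulatory, effector and memory, and follicular helper T cells, B cells, CD8 and NK cells, myeloid, plasmacytoid dendritic, erythroid and cycling cells, corepressor partners, the cereblon ligase, textbook targets and other T cell transcription factors. Alternatives were other scalings, filters and tests, a fit of 2 genotypes, a replicate block and each library left out. A block by genes detected, a fit without chromosomes X and Y and the longest transcript as length were added after seeing the data.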

Additional observations from a re-analysis of the deposited data

How the results depend on the processing

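In Ikzf3N159S/N159S against Ikzf3+/+ T cells, where 1 member was called, 0 were called with DESeq2's size factors, with edgeR's earlier quasi-likelihood test or with the replicate block (Ikzf3 at FDR values of 0.0512, 0.0523 and 0.0878). DESeq2, the likelihood ratio test and the block by genes detected called 2 (Ikzf1 and Ikzf3). In Ikzf3+/N159S against Ikzf3+/+, the main count of 1 became 2 with DESeq2 and the likelihood ratio test (Ikzf1 and Ikzf2) and 3 with the block by genes detected (also Ikzf4). In Ikzf3N159S/N159S against Ikzf3+/N159S, the count of 0 became 1 with the likelihood ratio test, 1 with no filter on low counts and 2 with the block by genes detected. When single libraries were left out, the counts ranged from 0 to 1 in both comparisons with Ikzf3+/+ and in the midpoint test. The cause of these changes was not tested, except that a fit without a library has fewer samples. Over all genes, 637 were called in Ikzf3N159S/N159S, 1042 by the likelihood ratio test and 1756 with the block by genes detected. In Ikzf3+/N159S the counts were 212, 640 and 1422, with 341 by DESeq2. Between the mutant genotypes they were 201, 473 and 877, with 486 without the filter. With libraries left out they fell to 221 in Ikzf3N159S/N159S (without Ikzf3+/+ replicate 2) and to 68 in Ikzf3+/N159S (without the same library).

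Replicate numbers did not pair the libraries. In the replicate block Ikzf2 was still called in Ikzf3+/N159S and in the midpoint test. The slope of the Ikzf3 to Ikzf1 ratio was 0.34, which a block with a library of each genotype at each number cannot change. The block by genes detected, chosen after seeing the data, crosses the numbers in Ikzf3+/+. Differences that changed sign were all small. Ikzf3 in Ikzf3+/N159S against Ikzf3+/+ was −0.036 without Ikzf3+/N159S replicate 1, the lowest of a range up to 0.11 over the libraries left out. Between the mutant genotypes Ikzf1 was −0.0089 with upper quartile scaling, −0.0062 without Ikzf3+/N159S replicate 2 and −0.014 without Ikzf3N159S/N159S replicate 2, with a highest value of 0.058. Without Ikzf3N159S/N159S replicate 1, Ikzf4 was 0.055 (lowest −0.35 with another library left out) and Ikzf5 0.041 (lowest −0.090). Of the members' log2 fold changes recomputed under these alternatives, 301 kept their direction and their side of the threshold, 12 lost the call, 11 gained it and 6 changed sign. The ratio slope kept its direction under all its alternatives, some of which could not change it. Depth limits Ikzf2 and Ikzf4 most, with 149 to 452 reads per library, and 2 libraries per genotype limit every call.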

Other observations

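Transcription factors outside the family that act in T cells were set beside it. Of 18 such genes, all tested, 3 rose and 3 fell in Ikzf3N159S/N159S against Ikzf3+/+ T cells, where 3.14% of all tested genes were called higher and 2.12% lower. This list too was chosen with earlier results of these data known, so the counts do not test whether such factors changed more often. The quiescence factor Klf2 was 435 and 445 CPM in the Ikzf3+/+ libraries, 423 and 510 in the Ikzf3+/N159S libraries and 595 and 683 in the Ikzf3N159S/N159S libraries, and rose by 0.54 on the log2 scale in the latter (standard error 0.115, Benjamini-Hochberg FDR = 0.0195 by the quasi-likelihood test of edgeR). Its relative Klf6 rose by 0.85 (standard error 0.125, FDR = 0.00262) and the repressor gene Gfi1 by 0.90 (standard error 0.224, FDR = 0.0410) in the same test. The progenitor factor Myb was 19.8 and 17.8 CPM in the Ikzf3+/+ libraries, 14.8 and 14.2 in the Ikzf3+/N159S libraries and 9.72 and 8.79 in the Ikzf3N159S/N159S libraries, and fell by 1.01 in the latter (standard error 0.158, FDR = 0.00374). Lef1, a mediator of Wnt signals that marks naive T cells, fell by 0.60 (standard error 0.149, FDR = 0.0391) and Runx1 by 0.46 (standard error 0.104, FDR = 0.0259). In Ikzf3+/N159S T cells 0 of the 18 were called by edgeR's quasi-likelihood test, DESeq2 or the likelihood ratio test. This is near the background of 1.75% of all tested genes called there by the first of these tests. At an unadjusted p under 0.05 in that test stood 3 of the 18, for which no share over all genes is given here. The median of the list was −0.055 in Ikzf3N159S/N159S and −0.14 in Ikzf3+/N159S T cells.

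Further marker lists gave these values, none of which was set against a member's level by a test. Follicular helper markers summed to 113 and 113 CPM in the Ikzf3+/+ libraries, 112 and 122 in the Ikzf3+/N159S libraries and 90.9 and 85.3 in the Ikzf3N159S/N159S libraries. CD8 and NK cell markers summed to 44.1 and 33.6, 31.0 and 32.7, and 16.9 and 16.0 CPM in the same order. Of the 5 tested, 1 was called higher and 1 lower in Ikzf3N159S/N159S against Ikzf3+/+, where 3.14% and 2.12% of all tested genes were. By edgeR's quasi-likelihood test these were Gzma (log2 fold change 2.64, FDR = 0.0433) and Cd8b1 (−2.63, FDR = 0.000502), so the sum does not stand for each gene. Myeloid markers ranged from 29.0 to 51.7 CPM over the 6 libraries, plasmacytoid dendritic cell markers from 24.7 to 37.4, erythroid markers from 0.687 to 6.49 and cycling markers from 15.3 to 23.9. The erythroid globin genes Hbb-bs and Hba-a1 had 0 reads in all 6 libraries. Naive T cell markers stood at 0.886 times the Ikzf3+/+ level in Ikzf3N159S/N159S and at 0.890 times in Ikzf3+/N159S T cells, with 1 of 9 called lower in each, Lef1 in the former and Il7r in the latter, where 2.12% and 0.602% of all tested genes were called lower.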
